A study of Mus musculus with 6 samples.

Results

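The genes described here are 54 chromatin modifiers and remodelers outside the MLL/COMPASS complexes: Polycomb proteins, histone demethylases, acetyltransferases, deacetylases, subunits of the BAF and PBAF remodelers, and enzymes of DNA methylation. They were chosen by name without a threshold on their values, though earlier results of these data were known. On the array, 53 of the 54 had a probe set annotated with their symbol alone, out of 22180 genes measured that way. The exception was Kdm2b, whose probe set carries more than 1 symbol and is not reported. The 6 Affymetrix arrays profiled total RNA from cultured mouse mammary stem cells grown as organoids, with 3 arrays of wild-type (WT) cells and 3 of cells labelled Mll3-null, from lines made with CRISPR. The labels state no strain, age or sex, and call them biological replicates without telling whether separate lines or cultures of 1 clone are meant, so p-values cover only the spread between these samples. The study compared the genotypes to learn the effect of MLL3 deletion.

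MLL3, the product of Kmt2c, is a histone methyltransferase of the COMPASS family that acts at enhancers, where its complex also carries a demethylase for the repressive mark of Polycomb. Polycomb repressive complex 2 (PRC2) writes that repressive mark and PRC1 binds it and ubiquitylates histones. Acetyltransferases such as p300 and CBP mark active enhancers, deacetylases reverse this, BAF complexes slide and evict nucleosomes, and DNMT and TET enzymes add and oxidise DNA methylation. In mammary epithelium these machineries are known for their part in keeping stem and lineage states.

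Expression is given on the log2 scale throughout, and a difference of 1 is a 2-fold change. Probe sets differ in how they bind, so no gene's level is set against another's. Kmt2c itself was at 6.63, 5.58 and 5.82 on the WT arrays and 5.84, 6.42 and 6.07 on the Mll3-null arrays. Its groups overlapped, with a difference (Mll3-null minus WT) of 0.10 ± 0.29 (log2, SE), and its probe set could not be placed against the deletion, so that this level tells nothing of the genotype labels. Epithelial markers (Epcam, Cdh1, Krt8 and Krt18) ran from 10.16 to 11.44 on the 6 arrays, whereas 4 measured immune markers reached at most 4.30, 4 endothelial markers 5.07 and 6 fibroblast markers 6.32. Of the 4 measured basal markers 3 were lowest in Mll3-null replicate 3: Krt14 was at 6.65 there, Krt17 at 4.80 and Trp63 at 5.02, against at least 11.74, 9.61 and 7.86 on the other 5 arrays. The fourth, Itga6, was highest there at 11.22, against 10.71 to 11.003. The mean of 14 genes of cycling cells was 8.78, 8.08 and 8.41 on the WT arrays and 8.73, 7.97 and 7.59 on the Mll3-null arrays. In bulk RNA, fewer cells of a type and less RNA per cell cannot be told apart.

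Expression of these chromatin genes differed little between the genotypes. None of the 53 passed limma's test at an adjusted p of 0.05, against 0% of all genes, and the lowest adjusted p among them was 0.84. Only 3 had an unadjusted p under 0.05, namely Kdm5b, Hdac2 and Hdac4, which is 5.66% of the 53 beside 4.93% of all genes; Kdm5b and Hdac4 had the higher mean in Mll3-null cells (background 2.51%) and Hdac2 the lower (background 2.42%). The differences ran from -0.29 for the deacetylase gene Hdac2 to 0.39 for the demethylase gene Kdm5b, so no mean differed by more than 1.31-fold. The 95% interval of the difference lay within 1 log2 unit of 0 for all 53, as it did for 91.6% of all genes. It lay within 1.5-fold for 47 of the 53, or 88.7%, beside 76.0% of all genes. A mean higher in Mll3-null cells was found for 32 and a lower one for 21, with a median difference of 0.06 beside 0.01 over all genes, 51.5% of which had a higher mean. The spread within a genotype was also small, with a median SD of 0.14 (range 0.03 to 0.43), beside 0.16 for all genes. By the median absolute difference the 53 did not differ less than all genes, at 0.12 beside 0.10. For genes with a mean over 6 that median was 0.13.

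**Figure D1:**
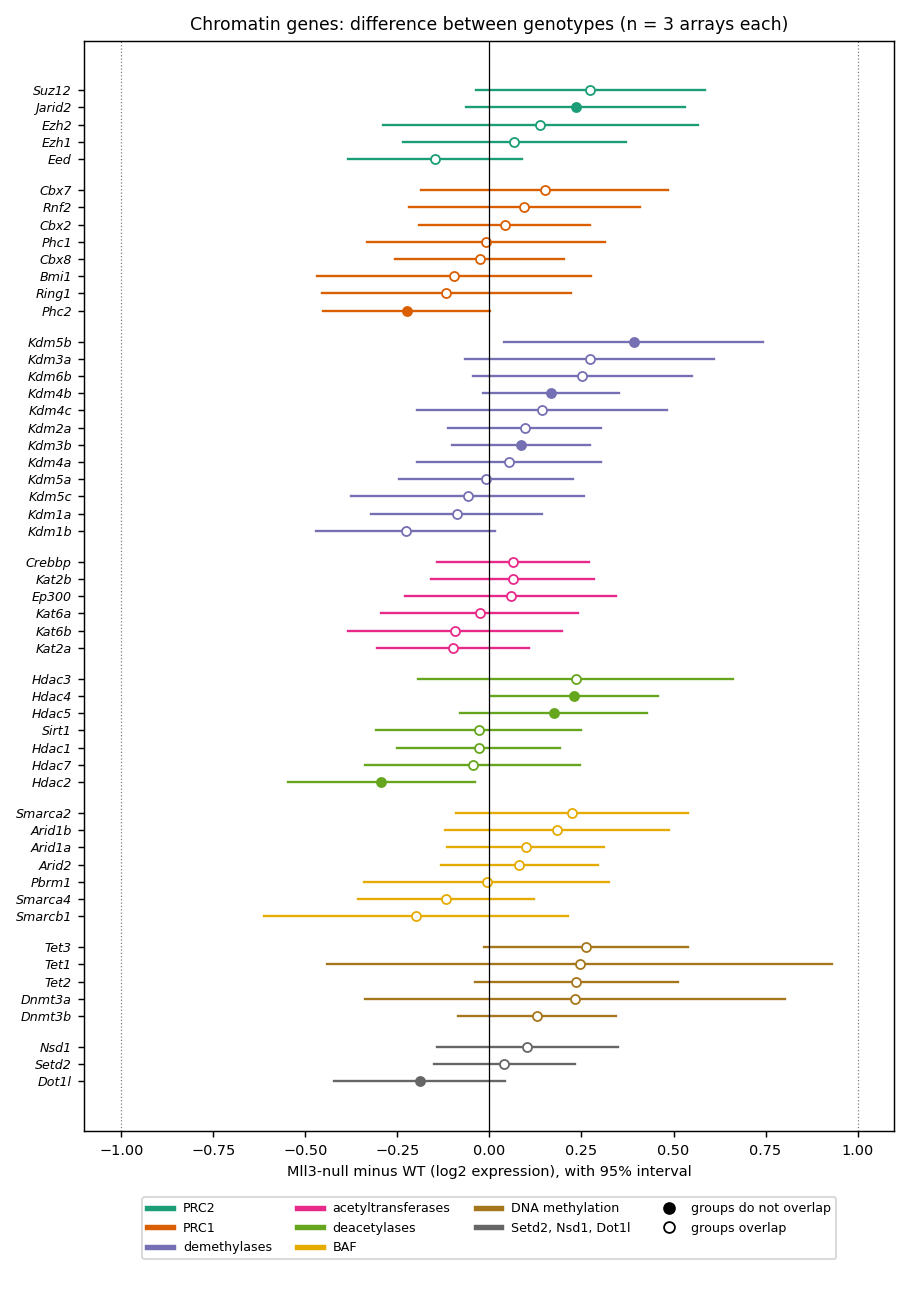
Mll3-null minus WT difference in log2 expression (x axis) for each of the 53 chromatin genes (rows, grouped and coloured by role), with points for the difference and lines for the limma 95% interval. All intervals lie inside the dotted lines at -1 and 1, and filled points mark the 9 genes whose groups do not overlap.

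For 9 of the 53 genes, or 17.0%, the 3 Mll3-null arrays lay all above or all below the 3 WT arrays, which was so for 10.7% of all genes. The 6 above were Kdm5b, Jarid2, Hdac4, Hdac5, Kdm4b and Kdm3b (background 5.44%), and the 3 below were Hdac2, Phc2 and Dot1l (background 5.31%). With quantile normalization 14 genes separated in this way, the 9 among them, beside 10.6% of all genes. With median centring 7 did, beside 10.5% of all genes, and 6 of them were among the 9, without Jarid2, Kdm3b and Kdm5b. Of the 3 genes with an unadjusted p under 0.05, Kdm5b and Hdac4 are on chromosome 1 and Hdac2 is on chromosome 10. The median of the expressed genes of chromosome 1 was raised in Mll3-null replicate 3 (0.30) and less in replicate 2 (0.09). That of chromosome 10 was raised in WT replicate 1 (0.22).

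**Figure D2:**
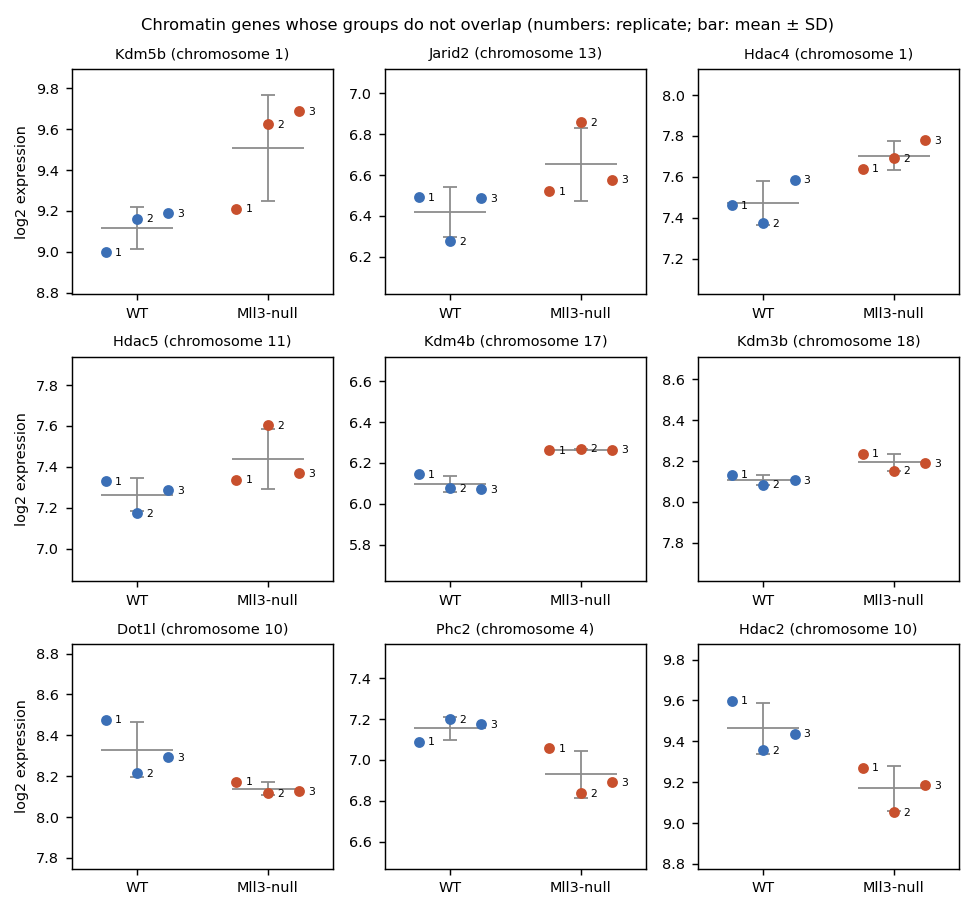
Log2 expression (y axis, the same span in each panel) of the 9 chromatin genes whose groups do not overlap, for WT (blue) and Mll3-null (red) arrays, numbered by replicate, with mean ± SD bars. The gap between the groups is narrow in most panels: Hdac5 in WT replicate 1 is at 7.33 and in Mll3-null replicate 1 at 7.34.

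A feature the choice of genes did not use is the sequence of their promoters. RefSeq promoter windows (GRCm38.p6, 250 bases before to 50 after a start site, 300 in all) were matched for 42 of the 53 genes, 56 windows in total. They held a median of 28.5 CpG dinucleotides (C followed by G), with a range of 0 to 57, and a median GC content of 66.2%. Over all 32851 windows, which were not limited to expressed genes, the medians were 7 CpG and 52.7%. CpG dinucleotides are the substrate of DNMT and TET enzymes and dense runs of them are typical of broadly expressed genes. The 250 bases upstream of the start are shown, 5′ to 3′ on the gene's strand with CpG in capitals, for the 3 genes of lowest p and for Tet2, whose window was the richest in CpG. They are Kdm5b (chr1:134559928-134560177, plus strand, 13 CpG), Hdac4 (chr1:92180342-92180591, minus strand, 23 CpG), Hdac2 (chr10:36974294-36974543, plus strand, 27 CpG) and Tet2 (chr3:133544391-133544640, minus strand, 51 CpG).
Kdm5b: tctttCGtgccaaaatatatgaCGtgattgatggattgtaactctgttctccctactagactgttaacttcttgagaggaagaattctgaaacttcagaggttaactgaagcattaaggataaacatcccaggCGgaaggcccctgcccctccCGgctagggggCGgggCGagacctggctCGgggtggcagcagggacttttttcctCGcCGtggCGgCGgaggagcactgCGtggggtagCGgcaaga
Hdac4: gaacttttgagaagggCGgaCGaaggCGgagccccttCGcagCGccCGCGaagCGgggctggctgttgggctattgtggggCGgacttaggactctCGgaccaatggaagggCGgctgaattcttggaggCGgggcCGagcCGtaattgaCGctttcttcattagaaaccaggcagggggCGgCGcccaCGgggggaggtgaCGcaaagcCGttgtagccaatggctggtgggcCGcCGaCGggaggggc
Hdac2: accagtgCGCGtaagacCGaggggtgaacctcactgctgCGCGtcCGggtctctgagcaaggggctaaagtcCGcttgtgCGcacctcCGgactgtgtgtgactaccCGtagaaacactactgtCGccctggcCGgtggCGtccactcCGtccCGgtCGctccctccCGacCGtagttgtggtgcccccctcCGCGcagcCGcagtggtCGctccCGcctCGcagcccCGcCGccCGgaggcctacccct
Tet2: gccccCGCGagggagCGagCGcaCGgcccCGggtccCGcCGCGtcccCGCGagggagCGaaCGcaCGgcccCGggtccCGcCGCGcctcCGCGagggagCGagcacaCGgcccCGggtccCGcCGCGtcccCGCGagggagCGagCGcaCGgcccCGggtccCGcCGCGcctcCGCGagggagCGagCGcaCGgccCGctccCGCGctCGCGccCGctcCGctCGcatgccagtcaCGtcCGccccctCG
In Kdm5b, 10 of the 13 CpG begin in the 100 bases next to the start, whereas in Tet2 21 begin in the first 100 bases and 20 in the last. Over the full 300 bases Kdm5b held 17, Hdac4 32 and Hdac2 36 CpG, all above the median of 7 over all windows. No relation of CpG content to the differences was computed.

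PRC2 was represented by its catalytic subunits Ezh1 and Ezh2, the core subunits Suz12 and Eed, and the accessory subunit Jarid2, which helps target the complex. Of the 5, 4 had a higher and 1 a lower mean in Mll3-null cells (median 0.14), and none passed the test. Jarid2 was at 6.49, 6.28 and 6.49 on the WT arrays and 6.52, 6.86 and 6.58 on the Mll3-null arrays. The groups did not overlap but nearly touched, and the difference of 0.23 ± 0.12 (SE, unadjusted p = 0.1, adjusted p = 0.84) was 0.13 without Mll3-null replicate 2. Suz12 was at 8.06, 7.87 and 8.17 on the WT arrays and 8.32, 8.12 and 8.48 on the Mll3-null arrays. Its difference was 0.27 ± 0.13, or 1.21-fold (unadjusted p = 0.076), and Mll3-null replicate 2 lay inside the WT range. The major methyltransferase Ezh2 was at 8.36, 7.92 and 8.42 on the WT arrays and 8.14, 8.38 and 8.60 on the Mll3-null arrays. It was lowest in WT replicate 2 and highest in Mll3-null replicate 3, and its difference of 0.14 ± 0.18 became -0.02 without WT replicate 2. The mean of the genes of cycling cells was lowest in Mll3-null replicate 3, though Mcm3, Mcm6 and Tyms were lowest on other arrays. Ezh1, its paralog, differed by 0.07 ± 0.13. Eed, the subunit that binds the repressive mark, was at 7.89, 8.08 and 8.07 in WT against 7.94, 7.76 and 7.90 in Mll3-null cells, a difference of -0.15 ± 0.10 with WT replicate 1 inside the Mll3-null range.

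PRC1 combines a ubiquitin ligase (Ring1 or Rnf2) with Bmi1, a CBX reader of the Polycomb mark and a PHC protein that links complexes together. Means were higher for 3 of its 8 genes and lower for 5 (median -0.02), none past the test. The polyhomeotic gene Phc2 was at 7.09, 7.20 and 7.17 on the WT arrays and 7.06, 6.84 and 6.89 on the Mll3-null arrays. All Mll3-null arrays lay below the WT arrays, replicate 1 by only 0.03, and the difference was -0.23 ± 0.09, or 1.17-fold lower (unadjusted p = 0.052, adjusted p = 0.84). Its paralog Phc1 differed by -0.01 ± 0.14. The reader gene Cbx7 was at 6.38, 6.37 and 6.61 on the WT arrays and 6.46, 6.48 and 6.86 on the Mll3-null arrays. Only Mll3-null replicate 3 lay above the WT range, and the difference was 0.15 ± 0.14. Cbx2 differed by 0.04 ± 0.10 and Cbx8 by -0.03 ± 0.10. Bmi1, known for its part in the self-renewal of stem cells, was at 5.97, 6.30 and 6.07 in WT against 6.06, 5.75 and 6.25 in Mll3-null cells. The highest and the lowest Bmi1 value were WT replicate 2 and Mll3-null replicate 2, and the difference was -0.10 ± 0.16. The ligase gene Rnf2 was at 8.89, 8.85 and 9.27 in WT against 9.07, 9.11 and 9.12 in Mll3-null cells, with the Mll3-null arrays within 0.06 of each other and inside the WT range. Ring1, its paralog, was at 6.23, 6.10 and 6.09 in WT against 5.74, 6.09 and 6.23 in Mll3-null cells and differed by -0.12 ± 0.14, with Mll3-null replicate 1 apart from the other 5 arrays.

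Among the 12 measured histone demethylase genes the mean was higher for 8 and lower for 4 (median 0.09), none past the test. The KDM5 enzymes remove methyl groups from the lysine that the MLL family methylates. Kdm5b, which has been studied in luminal breast cells, was at 8.998, 9.16 and 9.19 on the WT arrays and 9.21, 9.63 and 9.69 on the Mll3-null arrays. Replicates 2 and 3 of Mll3-null cells stood well above the highest WT array, while replicate 1 exceeded it by 0.02. The difference of 0.39 ± 0.15, or 1.31-fold, had a 95% interval from 0.04 to 0.74 (unadjusted p = 0.034, adjusted p = 0.84), and it was 0.54 without Mll3-null replicate 1 and 0.30 without replicate 3. The paralogs Kdm5a and Kdm5c differed by -0.01 ± 0.10 and -0.06 ± 0.13. Among the KDM4 enzymes, which act on marks of heterochromatin and of transcribed genes, Kdm4b was at 6.14, 6.08 and 6.07 on the WT arrays and 6.26, 6.27 and 6.26 on the Mll3-null arrays. The Mll3-null arrays were almost level and all above WT, but the difference was only 0.17 ± 0.08, or 1.12-fold (unadjusted p = 0.068). Kdm4a differed by 0.05 ± 0.10 and Kdm4c by 0.14 ± 0.14.

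Kdm3a, a demethylase of a heterochromatin mark that is known to be induced by low oxygen, was at 8.07, 7.69 and 7.91 on the WT arrays and 8.36, 8.11 and 8.02 on the Mll3-null arrays. The Mll3-null values were all above WT replicates 2 and 3, but replicate 3 lay below WT replicate 1, and the difference was 0.27 ± 0.14, or 1.21-fold (unadjusted p = 0.098). Kdm3b, its paralog, was at 8.13, 8.08 and 8.11 on the WT arrays and 8.24, 8.15 and 8.19 on the Mll3-null arrays, which separated the groups with a difference of 0.09 ± 0.08 (unadjusted p = 0.31). Kdm6b removes the Polycomb mark and is the paralog of the demethylase in the MLL3 complex. It was at 8.08, 8.13 and 8.24 on the WT arrays and 8.19, 8.42 and 8.59 on the Mll3-null arrays, with replicates 2 and 3 of Mll3-null cells above WT, and differed by 0.25 ± 0.12. Of its 2 probe sets the dimmer one, between 3.80 and 4.09, differed by 0.08. Kdm1b, a demethylase of active marks, was at 7.07, 6.97 and 7.15 on the WT arrays and 6.97, 6.80 and 6.74 on the Mll3-null arrays. The highest Mll3-null value equalled the lowest WT value at 2 decimals, and the difference was -0.23 ± 0.10, or 1.17-fold lower (unadjusted p = 0.062). Kdm1a, which encodes LSD1, differed by -0.09 ± 0.10, and Kdm2a, whose product binds CpG-rich DNA, by 0.10 ± 0.09.

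The acetyltransferase genes had 3 higher and 3 lower means and a narrow range of differences, from -0.10 to 0.06. Ep300 and Crebbp, which encode the enhancer acetyltransferases p300 and CBP, differed by 0.06 ± 0.12 and 0.06 ± 0.09. Crebbp was at 9.67, 9.72 and 9.58 in WT against 9.67, 9.71 and 9.79 in Mll3-null cells, all 6 values within 0.21 of each other, and the 95% interval of its difference was -0.14 to 0.27. Kat2a, the GCN5 enzyme of the SAGA complex, was at 8.48, 8.45 and 8.38 on the WT arrays and 8.40, 8.25 and 8.36 on the Mll3-null arrays. Mll3-null replicates 2 and 3 lay below WT and replicate 1 inside its range, and the difference was -0.10 ± 0.09, while its paralog Kat2b differed by 0.06 ± 0.09. Kat6b, a MYST family enzyme, was at 6.94, 7.13 and 7.29 on the WT arrays and 6.91, 7.06 and 7.12 on the Mll3-null arrays, with replicates 2 and 3 of Mll3-null cells inside the WT range (difference -0.09 ± 0.12), and Kat6a differed by -0.03 ± 0.11.

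Deacetylase means were higher for 3 genes and lower for 4, and 3 of these 7, or 42.9%, separated the groups, beside 10.7% of all genes. A set of 7 genes is too small to read against that share. Of the 3 that separated, Hdac4 and Hdac2 lie on chromosomes 1 and 10, whose medians were raised on some arrays. Measured against its chromosome's median, Hdac4 no longer separated the groups, while Hdac2 and Hdac5 did. Hdac2, a catalytic subunit of the NuRD, Sin3 and CoREST repressor complexes, was at 9.60, 9.36 and 9.44 on the WT arrays and 9.27, 9.05 and 9.19 on the Mll3-null arrays. All Mll3-null arrays lay below all WT arrays, with WT replicate 1 the highest of the 6. The difference was -0.29 ± 0.11, or 1.23-fold lower, with a 95% interval from -0.55 to -0.04 (unadjusted p = 0.029, adjusted p = 0.84). Without WT replicate 1 it was -0.23. Its close paralog Hdac1, which shares these complexes, was at 10.90, 11.01 and 10.89 in WT against 11.02, 10.84 and 10.86 in Mll3-null cells and differed by -0.03 ± 0.09; the difference between the paralogs was not tested. Hdac3, the deacetylase of the NCOR and SMRT corepressors, was at 10.16, 9.91 and 10.18 in WT against 9.97, 10.37 and 10.61 in Mll3-null cells. Mll3-null replicate 3 was the highest and replicate 1 lay inside the WT range, so that the difference of 0.23 ± 0.18 carried a wide interval, -0.19 to 0.66.

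The class IIa deacetylases shuttle between nucleus and cytoplasm and bind MEF2 factors. Hdac4 was at 7.46, 7.37 and 7.59 on the WT arrays and 7.64, 7.69 and 7.78 on the Mll3-null arrays. Its groups were apart by 0.05 at the nearest pair, and the difference was 0.23 ± 0.09, or 1.17-fold (unadjusted p = 0.048, adjusted p = 0.84). Hdac5 was at 7.33, 7.17 and 7.29 on the WT arrays and 7.34, 7.60 and 7.37 on the Mll3-null arrays. The groups were apart by less than 0.02, and the difference of 0.17 ± 0.11 was 0.09 without Mll3-null replicate 2. Hdac7 differed by -0.05 ± 0.12, with replicate 2 of the Mll3-null arrays the highest of the 6 and replicate 3 the lowest. Sirt1, the NAD-dependent deacetylase, was at 7.28, 6.94 and 6.95 on the WT arrays and 7.07, 6.98 and 7.03 on the Mll3-null arrays. WT replicate 1 stood above the other 5, which lay within 0.13 of each other, and the difference of -0.03 ± 0.12 turned to 0.08 without that array.

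BAF and PBAF are ATP-dependent remodelers built on Smarca4 (BRG1) or Smarca2 (BRM). Means were higher for 4 of the 7 genes and lower for 3 (median 0.08). None separated the groups, where 10.7% of all genes did, and 7 genes are too few to read against that share. Smarca2 was at 8.58, 8.57 and 8.61 on the WT arrays and 8.59, 9.06 and 8.78 on the Mll3-null arrays. The WT values were within 0.03, Mll3-null replicate 1 lay among them, and replicates 2 and 3 lay above, giving a difference of 0.22 ± 0.13, or 1.17-fold (unadjusted p = 0.14). The alternative ATPase Smarca4 was at 9.63, 9.35 and 9.50 in WT against 9.34, 9.39 and 9.39 in Mll3-null cells and differed by -0.12 ± 0.10, in the opposite direction. Smarcb1, a core subunit and tumour suppressor, was at 8.87, 8.28 and 8.45 on the WT arrays and 8.52, 8.23 and 8.26 on the Mll3-null arrays. WT replicate 1 was the highest by 0.35, and the difference of -0.20 ± 0.17 shrank to -0.03 without it. Arid1b, a DNA-binding subunit of BAF, was at 8.28, 7.87 and 8.17 on the WT arrays and 8.34, 8.32 and 8.21 on the Mll3-null arrays. It was lowest in WT replicate 2 and WT replicate 1 lay inside the Mll3-null range (difference 0.18 ± 0.13), and its paralog Arid1a differed by 0.10 ± 0.09. The PBAF subunits Arid2 and Pbrm1 differed by 0.08 ± 0.09 and -0.01 ± 0.14.

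All 5 genes of DNA methylation had a higher mean in Mll3-null cells (median 0.24), as did 51.5% of all genes. None passed the test. None separated the groups, where 10.7% of all genes did, and 5 genes are too few to read against that share. Dnmt3a, Dnmt3b, Tet2 and Tet3 were lowest in WT replicate 2. Outside the 5, among genes named without a rule, Uhrf1 differed by -0.40 ± 0.30, Dnmt1 by -0.05 ± 0.16 and Dnmt3l by -0.01 ± 0.09. Mbd1 (0.05 ± 0.15) and Idh1 (0.39 ± 0.12) had higher means. Dnmt3l was near the array medians of 4.35 to 4.40. Uhrf1 was lowest in Mll3-null replicate 3 (6.61), as was the mean of the genes of cycling cells (7.59), and a link between them was not tested. Tet3, which encodes a dioxygenase that oxidises methylcytosine, was at 7.65, 7.45 and 7.55 on the WT arrays and 7.87, 7.94 and 7.63 on the Mll3-null arrays. Only Mll3-null replicate 3 lay inside the WT range, and the difference was 0.26 ± 0.12, or 1.2-fold (unadjusted p = 0.059, adjusted p = 0.84). Tet2 was at 7.48, 7.46 and 7.56 on the WT arrays and 7.52, 7.82 and 7.87 on the Mll3-null arrays. Here replicate 1 lay inside the WT range and replicates 2 and 3 above it, with a difference of 0.24 ± 0.12 (unadjusted p = 0.082). Tet1 was at 5.25, 4.996 and 5.61 on the WT arrays and 4.93, 5.75 and 5.91 on the Mll3-null arrays. This was the widest range of the 53 genes, 0.98, with the lowest value in Mll3-null replicate 1 and the highest in replicate 3, so that the difference of 0.24 ± 0.29 was smaller than its error. The de novo methyltransferase gene Dnmt3a was at 7.35, 7.12 and 7.51 in WT against 7.15, 7.46 and 8.06 in Mll3-null cells. Mll3-null replicate 3, the array with low Krt14, exceeded the other 5 by at least 0.55, and without it the difference of 0.23 ± 0.24 was -0.02. Dnmt3b differed by 0.13 ± 0.09. The part of the low basal keratins of that array in the Dnmt3a and Tet1 values was not tested.

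Setd2 and Nsd1 methylate a lysine found in transcribed genes, and Dot1l methylates one in the core of the nucleosome. Dot1l was at 8.48, 8.21 and 8.29 on the WT arrays and 8.17, 8.12 and 8.13 on the Mll3-null arrays. All Mll3-null values lay below WT, with WT replicate 1 the highest, and the difference was -0.19 ± 0.10, or 1.14-fold lower (unadjusted p = 0.095), and -0.12 without WT replicate 1. Nsd1 was at 8.70, 8.41 and 8.57 on the WT arrays and 8.71, 8.64 and 8.64 on the Mll3-null arrays, with WT replicate 1 level with the highest Mll3-null array and WT replicate 2 the lowest (difference 0.10 ± 0.10). Setd2 was the steadiest of the 53 genes across the arrays, from 8.17 to 8.28 (difference 0.04 ± 0.08).

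The chromosome of a gene moved with part of these values. Deviations were taken from each gene's median over the arrays. For chromosome 1 (510 genes with a mean over 6) the median deviation was 0.30 in Mll3-null replicate 3, 0.09 in replicate 2 and -0.06 to 0.01 on the remaining 4 arrays. For chromosome 10 (443 genes) WT replicate 1 stood out at 0.22, with -0.05 to 0.01 elsewhere. On the other 18 chromosomes the medians stayed between -0.05 and 0.07. Chromosome 1 carries Kdm5b, Hdac4 and Rnf2, and chromosome 10 carries Hdac2, Dot1l, Smarcb1, Sirt1 and Tet1. Among these 8 genes 4 separated the groups, against 5 of the other 45, or 11.1%, beside 10.7% of all genes. The share over all genes of chromosomes 1 and 10 is not given, and 8 genes are too few to read against 10.7%.

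Each gene was therefore also measured against the median of its chromosome on each array, a step chosen after seeing the data. No gene of the 53 then had an unadjusted p under 0.05. The share of all genes under 0.05 on these values is not given, so this count cannot be set against it. Kdm5b differed by 0.24 ± 0.11 (unadjusted p = 0.055), Hdac2 by -0.20 ± 0.09 (0.063), Dot1l by -0.10 ± 0.08 and Hdac4 by 0.08 ± 0.10 (SE), and Hdac4 no longer separated the groups while the others did. Rnf2 turned to -0.05 and Sirt1 to 0.07, while the difference of Tet1 grew from 0.24 to 0.34. In all 13 genes separated the groups on these values, 8 of them among the 9, beside 10.8% of all genes; they were 3 of the 8 genes on chromosomes 1 and 10 and 10 of the other 45. The copy number of these chromosomes was not measured.

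**Figure D3:**
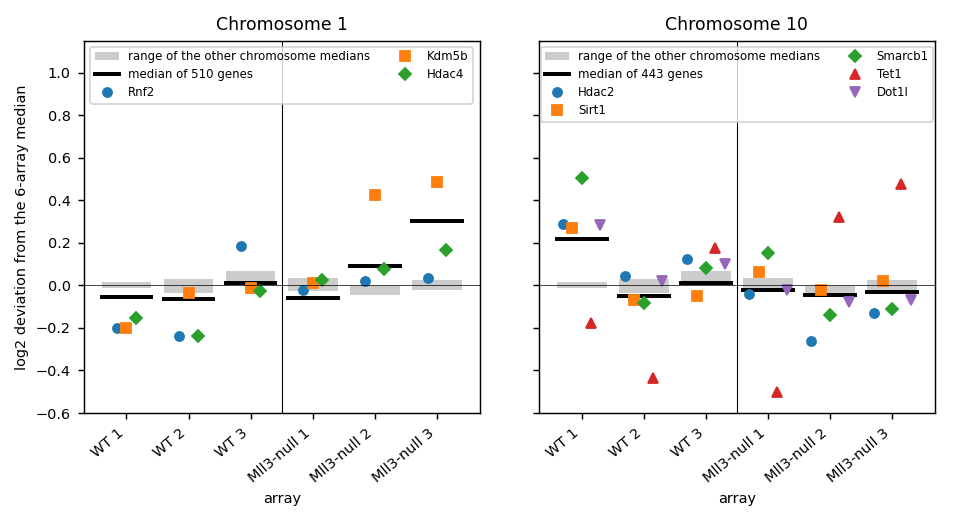
Log2 deviation from the gene's 6-array median (y axis) on each array (x axis) for the chromatin genes of chromosomes 1 and 10 (symbols), with the median of the chromosome's expressed genes (black bars) and the range of the medians of the other chromosomes (grey). Kdm5b and Hdac4 are highest in Mll3-null replicate 3, where the chromosome 1 median is 0.30, and Hdac2, Dot1l, Smarcb1 and Sirt1 are highest in WT replicate 1, where the chromosome 10 median is 0.22; Rnf2 is highest in WT replicate 3 and Tet1 in Mll3-null replicate 3.

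The arrays did not contribute alike. WT replicate 2 held the lowest value of the 6 for 22 of the 53 genes, or 41.5%, beside 21.3% of the 8752 genes with a mean over 6, and its median deviation from the gene means was -0.09 against -0.02 for those genes. Mll3-null replicate 3 held the highest value for 15 and the lowest for 5, where it took the extremes of 30.8% and 28.3% of the expressed genes. Mll3-null replicate 2 was highest for 11 and lowest for 10, and replicate 1 for 9 and 6. Among the genes lowest in WT replicate 2 were Ezh2, Suz12, Jarid2, Kdm3a, Hdac3, Arid1b, Dnmt3a, Tet2 and Tet3. Leaving out 1 array at a time changed the direction of 17 of the 53 differences in at least 1 case.

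**Figure D4:**
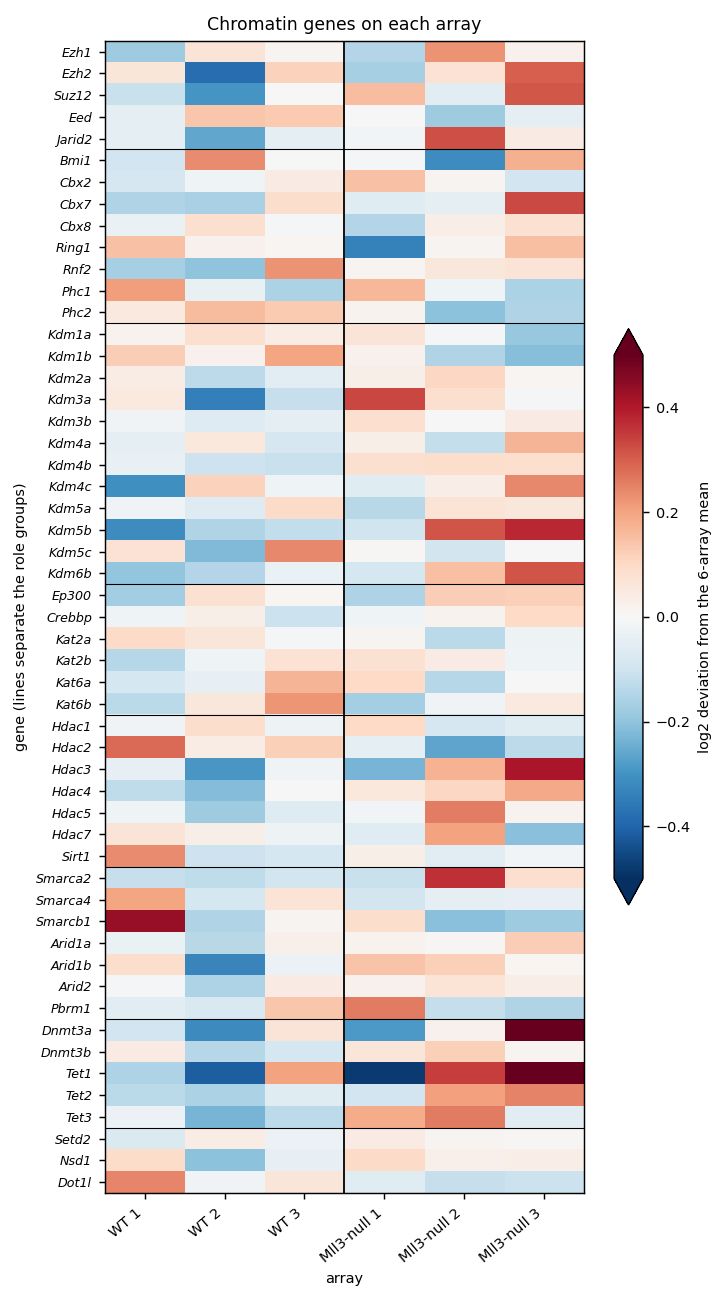
Log2 deviation from the 6-array mean (colour, red above and blue below, saturating beyond 0.5) for the 53 chromatin genes (rows, with lines between role groups) on each array (columns). WT replicate 2 is blue in many rows, being lowest for 22 genes, and Dnmt3a and Tet1 are highest in Mll3-null replicate 3.

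Paralogs with overlapping function were set side by side for 11 pairs, and in 3 the means differed in opposite directions. These were Smarca2 (0.22 ± 0.13) and Smarca4 (-0.12 ± 0.10), Ring1 (-0.12 ± 0.14) and Rnf2 (0.10 ± 0.13), and Kat2a (-0.10 ± 0.09) and Kat2b (0.06 ± 0.09). In none of these did either gene pass the test, and the difference within a pair was not tested.

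Other genes of the same machineries, 109 listed names, gave 96 with a value. None passed the test in either direction, 47 had a higher and 49 a lower mean (median -0.01), and 7 had an unadjusted p under 0.05, or 7.29% beside 4.93% of all genes. Phf10, a PBAF subunit, was at 8.67, 8.45 and 8.89 on the WT arrays and 9.53, 9.04 and 10.03 on the Mll3-null arrays. All Mll3-null arrays lay above WT, replicate 3 most, and the difference was 0.86 ± 0.26, or 1.82-fold (unadjusted p = 0.014, adjusted p = 0.84). The largest difference among the 96 was that of Bcl11a, a zinc-finger protein found with BAF complexes (named after its values were seen), at 1.04 ± 0.41, or 2.06-fold (unadjusted p = 0.04). It was at 3.65, 3.58 and 4.01 in WT against 3.89, 4.89 and 5.58 in Mll3-null cells, so that Mll3-null replicate 1 lay inside the WT range. The WT values and Mll3-null replicate 1 were below the array medians (4.35 to 4.40), so the fold change starts from a low level. The related gene Bcl11b had a lower mean, by -0.46 ± 0.72. Also higher were the means of Idh1, a cytosolic isocitrate dehydrogenase that makes the cofactor of TET and JmjC enzymes and lies on chromosome 1, by 0.39 ± 0.12, and of the NuRD remodeler gene Chd3, by 0.48 ± 0.16. The lowest p on the other side belonged to the PRC1 gene Pcgf3 at -0.31 ± 0.09, the ISWI remodeler gene Smarca5 at -0.27 ± 0.10 and the arginine methyltransferase gene Prmt1 at -0.25 ± 0.10, none past the test.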

How the data were processed

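The 6 arrays were compared as 3 WT against 3 Mll3-null. Per the submitters' processing notes, the authors processed the arrays with Affymetrix Expression Console (version, summarization and build: not given in the sources used here). Units were read as log2 from the deposited values, which run from 1.72 to 13.56 with array medians of 4.35 to 4.40, so arrays share a common scale that hides any change in total RNA. No detection calls were used, and precision is limited by the small number of arrays.

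Of 41345 probe sets, 23521 carried 1 symbol in the platform annotation. Each of 22180 genes was represented by its brightest such probe set on average; only Kdm6b among the members had more than 1. Chromosomes came from the GRCm38.p6 gene table through gene identifiers, and promoter sequences from RefSeq. limma 3.58.1 in R 4.3.3 (lmFit, eBayes, a two-sided test of genotype without covariates) was run on all genes with Benjamini-Hochberg adjustment at 0.05. It was tested on simulated data. Chromosome medians used genes with a mean over 6.

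The members, lists, roles and alternatives were chosen with earlier results of these data known. Values were given per array for genes whose groups do not overlap, the 2 of lowest p in each role group, those on chromosomes 1 and 10, and others singled out after their values were seen. No label ties the replicate numbers of the groups to each other, and the fit used no block. Alternatives covered scaling, a filter on dim genes, the probe set, the variance model, array weights, the replicate block, left-out arrays and, added after seeing the data, centring on chromosomes.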

Additional observations from a re-analysis of the deposited data

How the results depend on the processing

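None of the 53 genes passed the threshold, and none of all genes did, under any of the 16 alternatives run on the fit. The lowest adjusted p among the 53 was 0.20, without Mll3-null replicate 1. There 9 of them had an unadjusted p under 0.05, against 3 with all arrays. Array weights gave 12, and leaving out any other single array gave 0 to 2. The shares of all genes under these settings are not given here, so these counts do not set the 53 apart. The number of genes with a higher mean, 32, ran from 32 to 36 with 1 array left out, and the median difference, 0.06, from 0.04 to 0.08. The count of genes whose groups do not overlap, 9, was 14 with quantile normalization and 20 with WT replicate 1 and Mll3-null replicate 3 both left out (31.7% of all genes). With 1 array left out it ran from 11 to 21, where 17.9% to 29.8% of all genes separated; groups that do not overlap cannot come to overlap when an array is removed, so these counts could only rise and say nothing about the stability of the 9. It was 18 without WT replicate 1, 19 without WT replicate 3 and 21 without Mll3-null replicate 1. With WT replicate 1 and Mll3-null replicate 3 both left out 10 of the 53 differences changed direction, among them, of the 23 genes chosen by rule for a full account, Cbx7 (-0.016), Sirt1 (0.080) and Smarcb1 (0.0076). On chromosome-centred values 5 of the 53 did, Rnf2 (-0.052) and Sirt1 (0.065) among the 23 and Phc1, Kdm5a and Pbrm1 besides. Sirt1 ran from -0.088 to 0.081 with 1 array left out. In all, 19 of those 23 and 32 of the 53 genes kept their direction under the 16 alternatives. The replicate block gave 0 genes called and 3 of the 53 with an unadjusted p under 0.05, and it changed no call. Deviations of same-numbered arrays correlated at 0.03, 0.08 and 0.31 (across genes, replicates 1, 2 and 3). The WT array correlated best with the Mll3-null array of its own number for replicates 1 and 3 but not for 2. These values do not settle whether the numbers pair the arrays. The cause of the changes between alternatives was not tested.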
